A study of Arabidopsis thaliana with 30 samples.

Results

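C24XLer and LerXC24 are the reciprocal F1 hybrids of the Arabidopsis thaliana accessions C24 and Ler (Landsberg erecta). They carry the same nuclear genotype and differ in which accession was the mother. All libraries of these 2 crosses were taken, 3 of C24XLer (A, B and C) and 3 of LerXC24 (A, B and C), which is 6 of the 30 libraries of the series. The 3 libraries each of the parents C24 and Ler are set beside them, and 6 F6 lines from the same cross enter only as further libraries in the fit. Every library is RNA from the whole aerial part of 15-day seedlings, grown without treatment on medium with 1% sucrose. Seeds were kept at 4 °C for 3 days, and seedlings then had a 16 h day at 22 °C and an 8 h night at 18 °C. The hybrids came from pollination by hand. The labels do not say which parent in a cross name is the mother, how many plants a library holds or at which hour it was harvested. The p-values therefore measure the spread between libraries only. In the fit that spread was estimated for each gene over all 30 libraries, the F6 lines included. Its p-values and SEs thus do not rest on the spread of the 6 F1 libraries alone.

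By convention the mother is named first in a cross. A seedling of Arabidopsis takes its mitochondria and plastids from the mother, while its nuclear genes come from both parents in equal dose. A few genes are read from only 1 parental copy in the endosperm, the nutritive tissue of the seed, and reciprocal crosses are the usual way to see such imprinting as well as effects of the mother on seed size and provisioning. Many of the genes described here also follow the circadian clock, in which morning factors such as CCA1, LHY and RVE8 and evening factors such as TOC1 and LUX act on each other, and whose state at harvest affects the level of many transcripts.

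Total reads ran from 45856620 to 47150650 in C24XLer and from 46388088 to 52535852 in LerXC24, with 85.2% to 88.5% accepted by the aligner. The 6 libraries correlated at 0.975 to 0.993 on the log2 CPM scale (CPM, counts scaled to the size of the library). C24XLer C stood closer to LerXC24 A (0.9923) than to C24XLer A (0.9835) or C24XLer B (0.9889). A clock index was the mean log2 CPM of evening genes minus that of morning genes. The evening genes were TOC1, LUX, GI, ELF4 and PRR5, and the morning genes CCA1, LHY, PRR9, LNK1 and RVE8. The index is given uncentred, and was centred over all libraries only for its use as a covariate. It was -0.56, -0.65 and -0.19 in C24XLer A, B and C, and -0.12, 0.90 and 1.41 in LerXC24 A, B and C. LerXC24 B and C thus stood apart towards the evening side, and C24XLer C and LerXC24 A lay side by side.

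The clearest difference between the crosses was in the mitochondrial genome. ATMG00730 had raw counts of 15, 16 and 10 in C24XLer A, B and C, and 0 in each LerXC24 library. ATMG01170 had 36, 24 and 27 counts in the C24XLer libraries and 0 in each LerXC24 library. These are the only 2 mitochondrion-encoded genes of 22 tested that were called, and they were called at adjusted p = 0.0069 for ATMG00730 and 0.016 for ATMG01170. With 3 counts over the 3 LerXC24 libraries as the floor, ATMG00730 was at least 14.8-fold and ATMG01170 at least 31.3-fold higher in C24XLer. These limits cover counting error only. They are folds of counted reads, and whether transcript levels differed or only the reads that could be counted was not tested.

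Both genes went with the parent named first. In C24 A, B and C ATMG00730 had 20, 8 and 14 counts and ATMG01170 had 12, 18 and 17, while both had 0 in each Ler library. The same pattern was seen in 3 further mitochondrial IDs that were too low to be tested. They were ATMG00040 (16 counts over C24XLer, 0 over LerXC24), ATMG00050 (12 and 0) and ATMG01090 (16 and 0). With at least 10 counts in C24 and at most 3 in Ler there were 10 organelle genes. Of these, 6 had over 3 counts in C24XLer only, and 4 lay within 1 log2 unit between the crosses. At 10 or more counts no mitochondrial ID had the reverse pattern. Mitochondrial sequence of Ler alone that has no ID in the reference could not have shown it. AT2G07747 (chr2:3244585-3245545), a nuclear ID on the chromosome whose reference sequence carries a large insertion of mitochondrial DNA, was the reverse, with 0 counts in each C24XLer and C24 library, 8, 7 and 2 in LerXC24 A, B and C, and 4, 1 and 1 in Ler A, B and C. Without 1 library at a time the adjusted p was at most 0.074 for ATMG00730 and 0.19 for ATMG01170. With the clock index as a covariate the unadjusted p by edgeR was 1.1e-05 for ATMG00730 and 1.1e-04 for ATMG01170, with adjusted p = 0.33 and 0.90.

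**Figure D1:**
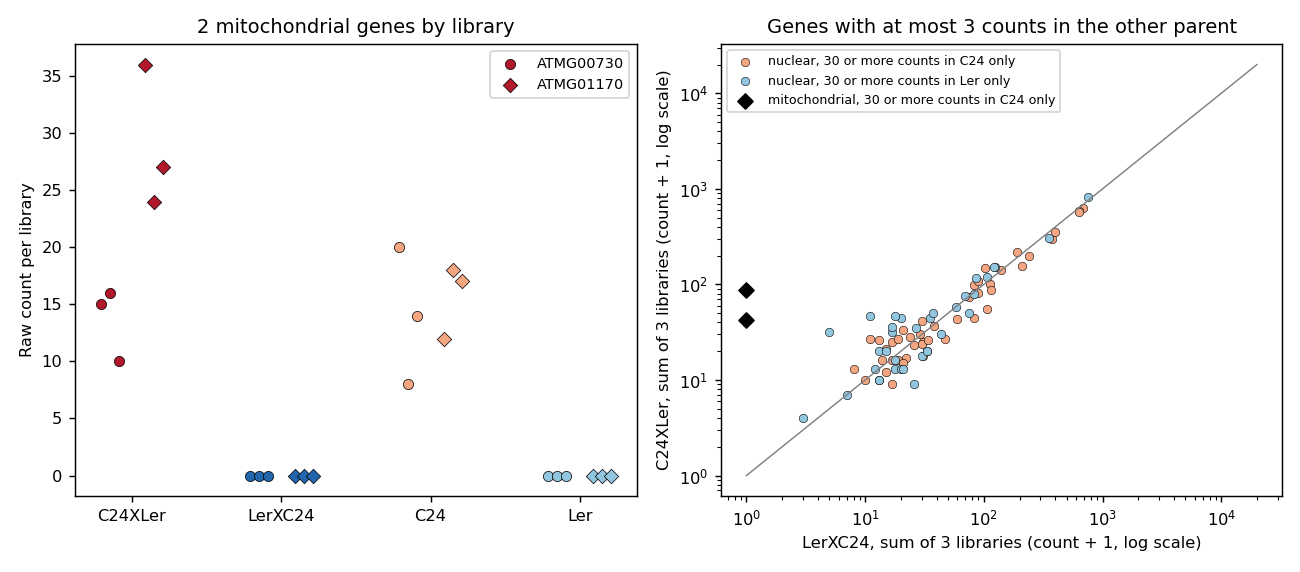
Left, the raw count of 2 mitochondrial genes in each library of C24XLer, LerXC24, C24 and Ler (circles ATMG00730, diamonds ATMG01170), with every LerXC24 and Ler library at 0. Right, the count over 3 C24XLer libraries (y) against the count over 3 LerXC24 libraries (x), both plus 1 on log axes, for genes with at least 30 counts in 1 parent and at most 3 in the other, where nuclear genes lie along the line of equal counts and the 2 mitochondrial genes at 0 on the x axis.

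Nuclear genes that only 1 parent expressed came through in both crosses. With at least 30 counts over the 3 libraries of 1 parent and at most 3 over those of the other, 45 nuclear genes were counted in C24 only and 34 in Ler only. None of these 79 had over 3 counts in 1 cross and 3 or fewer in the other, and 1 had 3 or fewer in both. The median log2 ratio of the cross with the expressing parent named first over the cross with it named second was -0.07. Within 1 log2 unit of equality lay 70 of the 79 genes, 43 of the 45 of C24 and 27 of the 34 of Ler. Of 71 that were tested 1 was called by edgeR, beside 4.91% of all genes. It was AT1G28940, expressed in Ler, with 44 counts over C24XLer and 19 over LerXC24 (adjusted p = 0.038). FLC, a repressor of flowering that differs strongly between the parents, shows the pattern at a high level. It had 44.6, 55.7 and 47.3 CPM in C24XLer A, B and C, and 47.5, 43.9 and 57.3 CPM in LerXC24 A, B and C, beside 88.6 to 102 in C24 and 0.716 to 1.05 in Ler. The crosses overlapped, with a log2 change of -0.01 ± 0.16 (SE; C24XLer minus LerXC24 here and in every log2 change below).

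The same held for strong parental differences in general. Of 327 genes called between C24 and Ler that differed by over 3 log2 units, 292 (89.3%) were within 1 log2 unit between the crosses, with a median of 0.03, and 9 were called. The share called among them, 2.75%, is below the 4.91% over all genes tested.

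Among 20 genes known as imprinted in the endosperm, 1 was lower in C24XLer and 0 were higher, beside 2.57% and 2.34% of all genes, with a list median of 0.06 and a median of all genes of -0.006. The 1 was JMJ15, a histone demethylase, at 10.9, 10.3 and 10.6 CPM in C24XLer and 12.3, 12.2 and 14.0 CPM in LerXC24 (A, B and C, -0.28 ± 0.07, adjusted p = 0.024). Among 31 genes of RNA silencing and DNA methylation 0 were called by edgeR, with 4 at an unadjusted p under 0.05 and a median of -0.02.

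Over the whole transcriptome, 1438 of 29268 genes tested (4.91%) were called between the crosses at an adjusted p under 0.05, with 686 higher (2.34%) and 752 lower (2.57%) in C24XLer. C24 and Ler differed at 7555 genes (25.8%). Among the 1438 genes 242 were over 1 log2 unit higher and 177 over 1 log2 unit lower, and in 1258 (87.5%) the 3 C24XLer values did not overlap the 3 LerXC24 values, as in 17.8% of all genes tested.

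The count changed with single libraries and with which libraries were in the fit. It was 17 without C24XLer A, 21 without C24XLer B, 3 without LerXC24 B and 0 without LerXC24 C, where 3284 genes (11.2%) had an unadjusted p under 0.05, as had 19.3% with all libraries. It was 2041 without C24XLer C and 2944 without LerXC24 A. Of the 1438 genes, 1122 were called in 2 of these 6 refits, 277 in 1 and 9 in none, and 1403 had an unadjusted p under 0.05 in all 6. With only the 6 F1 libraries in the fit 0 genes were called by edgeR (3917 unadjusted, 13.8%), and with only the 12 libraries of parents and F1, 0 (4786 unadjusted, 16.6%). With the clock index as a covariate 0 were called (749 unadjusted, 2.56%). The index itself differed between the crosses (means of -0.47 in C24XLer and 0.73 in LerXC24), so a fit with it also takes up part of the difference between the crosses, and the 2 cannot be told apart. All calls below carry these limits, and they are not repeated at each gene.

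**Figure D2:**
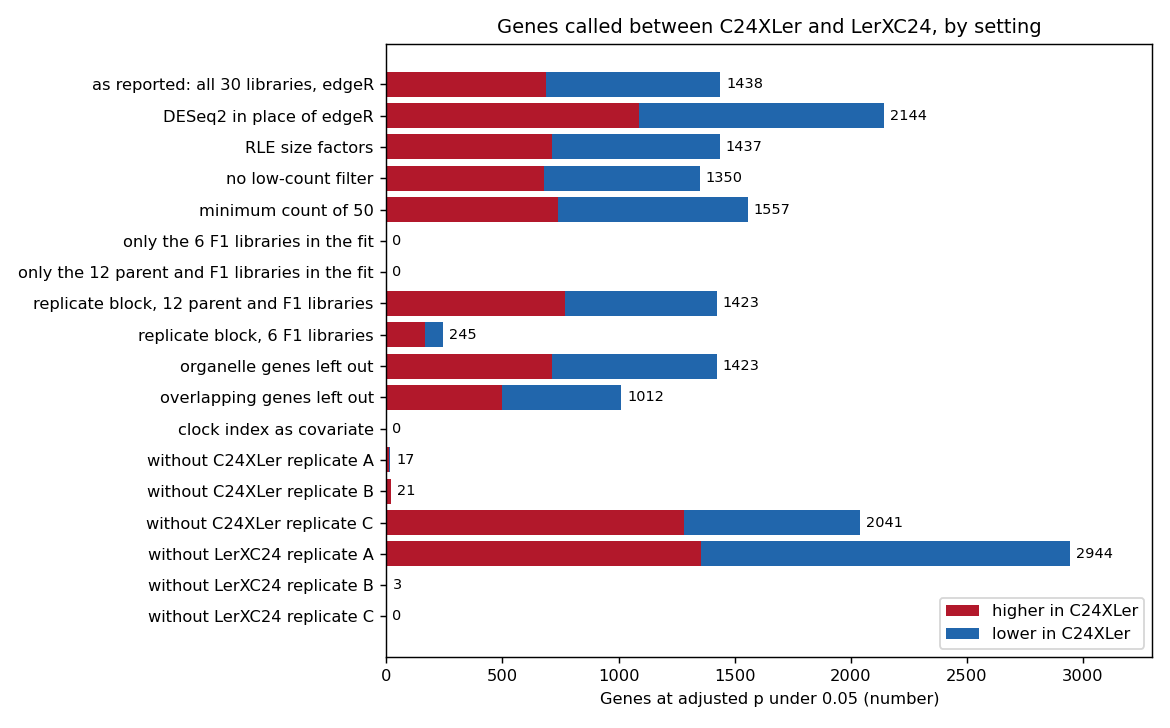
Number of genes called between C24XLer and LerXC24 (x) under each setting of the test (y), with genes higher in C24XLer in red and lower in blue. The bar is at 1438 as reported, between 1012 and 2144 under other tools, filters and scalings of the same libraries, and at 0 to 21 without C24XLer A, C24XLer B, LerXC24 B or LerXC24 C, with the clock index, or with only the parent and F1 libraries and no replicate block. With that block it is at 245 in the 6 F1 libraries, and it is at 2041 without C24XLer C and 2944 without LerXC24 A.

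Genes of the response to dehydration and abscisic acid (ABA) made up the longest run of calls. Of 44 tested, 22 were higher in C24XLer and 0 lower, beside 2.34% and 2.57% of all genes, and the list median was 0.60. Abscisic acid is the hormone of water shortage: NCED3 makes its precursor, type 2C protein phosphatases such as HAI1 and HAI2 dampen its signal and are themselves induced by it, and RD20 and GOLS2 are among its targets. The list median with the index as a covariate was 0.26 and 6 members had an unadjusted p under 0.05.

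NCED3 (AT3G14440, chr3:4831286-4834015), which cleaves carotenoids on the way to ABA, had 125, 112 and 30.5 CPM in C24XLer A, B and C, and 25.7, 29.6 and 28.9 CPM in LerXC24 A, B and C (1.67 ± 0.41, adjusted p = 0.024). C24XLer A and B were high, and C24XLer C was just above the LerXC24 range. HAI1 (AT5G59220, chr5:23894404-23896939) had 82.6, 41.8 and 22.7 CPM in C24XLer and 10.1, 8.27 and 7.28 CPM in LerXC24 (2.52 ± 0.53, adjusted p = 0.016). HAI2 (AT1G07430, chr1:2280746-2282828) had 32.6, 31.7 and 5.08 CPM in C24XLer and 4.33, 2.95 and 2.92 CPM in LerXC24 (2.77 ± 0.53, adjusted p = 0.016). For both phosphatases C24XLer C was the lowest of its cross and above every LerXC24 library.

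RD20, a caleosin of lipid droplets, had 178, 90.6 and 42.4 CPM in C24XLer and 31.3, 23.0 and 11.3 CPM in LerXC24 (2.24 ± 0.43). GOLS2, which makes galactinol for protective sugars, had 70.2, 55.5 and 22.5 CPM in C24XLer and 14.4, 8.88 and 6.79 CPM in LerXC24 (2.30 ± 0.46). RD26, a NAC transcription factor of the ABA response, had 126, 129 and 30.4 CPM in C24XLer and 23.0, 22.4 and 18.4 CPM in LerXC24 (2.16 ± 0.49, adjusted p = 0.019). The 3 genes rose with A and B far above C. PUB19 (AT1G60190, chr1:22198266-22200687), a ubiquitin ligase of the drought response, had the largest rise among genes averaging at least 10 CPM, with 125, 71.6 and 5.92 CPM in C24XLer and 3.66, 3.27 and 2.50 CPM in LerXC24 (4.42 ± 0.90, adjusted p = 0.016).

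The other large rises were DIP2 (3.54 ± 0.72), AT4G33467 (2.39 ± 0.55, overlapping AT4G33465) and the neighbours AT2G30766 (3.13 ± 0.90) and AT2G30760 (3.08 ± 0.90), which overlap each other so that their counts cannot be kept apart. The pair was highest in C24XLer B, at 73.7 CPM for AT2G30766, and not in A (19.2) or C (33.1), with 7.93, 3.51 and 2.98 CPM in LerXC24. AT2G30766 also overlaps AT2G30770 (CYP71A13), which changed by 1.78 and was not called.

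HB-7, a homeodomain factor induced by water deficit, was not carried by 2 libraries alone. It had 71.1, 98.6 and 54.5 CPM in C24XLer and 30.2, 18.0 and 13.6 CPM in LerXC24 (1.86 ± 0.27, adjusted p = 0.0069), and without 1 library at a time its change stayed between 1.61 and 2.25. Its change with the index as a covariate was 1.1 with an unadjusted p of 2.93e-04.

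Of 10 cold-response genes, 2 were higher and 0 lower, beside 2.34% and 2.57% of all genes. The list averaged 1.06, 0.52 and -0.56 log2 units from the mean of the 6 libraries in C24XLer A, B and C. In LerXC24 A, B and C it averaged -0.67, -0.22 and -0.12, so that C24XLer C lay below LerXC24 B and C. CBF3, a master regulator of cold acclimation, had 11.1, 9.52 and 2.63 CPM in C24XLer and 1.34, 1.70 and 2.1 CPM in LerXC24 (2.17 ± 0.48). RD29A, a target of both cold and ABA signals that stands in both lists, had 366, 499 and 249 CPM in C24XLer and 155, 128 and 58.5 CPM in LerXC24 (1.70 ± 0.44, adjusted p = 0.030). RD29A was at 433 to 599 CPM in Ler and 19.0 to 105 CPM in C24, so the cross with C24 named first had the level nearer to Ler.

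**Figure D3:**
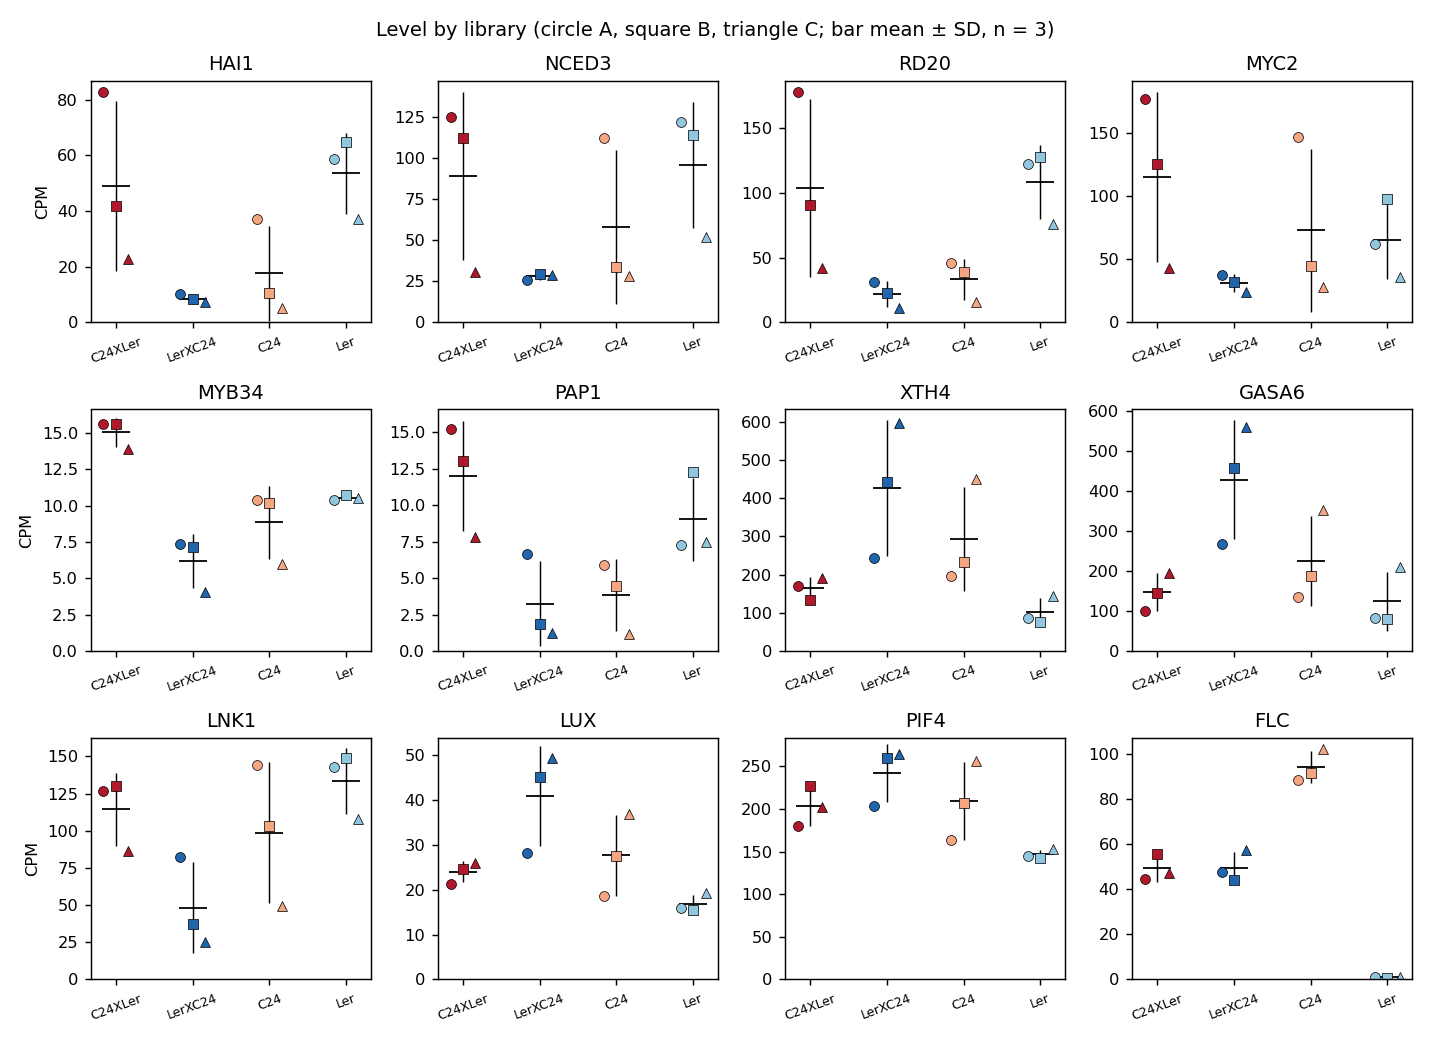
Level in CPM (y, from 0) of 12 named genes in the 3 libraries each of C24XLer, LerXC24, C24 and Ler (circle A, square B, triangle C; bars mean ± SD). In NCED3 the triangle of C24XLer, at 30.5, lies beside the LerXC24 libraries at 25.7 to 29.6, in MYB34 all 3 C24XLer libraries lie between 13.9 and 15.6, and in FLC the crosses overlap between the parents.

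Promoters of the called clock and ABA genes are shown because motifs of clock and ABA factors can be looked for in them. The windows are the 250 bases before the gene start of the TAIR10.1 annotation, read 5′ to 3′ on the gene's strand, with capitals for any match to the evening element AAATATCT, the G-box CACGTG, the CCA1-binding site AAAAATCT or the ABA-response core ACGTGNC on either strand. The G-box and the ABA core can overlap.
LNK3, chr3:3923265-3923514, plus strand: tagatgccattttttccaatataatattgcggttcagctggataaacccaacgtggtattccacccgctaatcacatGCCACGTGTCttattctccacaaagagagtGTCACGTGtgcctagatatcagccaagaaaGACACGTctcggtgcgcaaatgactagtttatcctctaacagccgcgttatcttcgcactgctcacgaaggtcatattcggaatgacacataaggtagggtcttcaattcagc
LUX, chr3:17182792-17183041, plus strand: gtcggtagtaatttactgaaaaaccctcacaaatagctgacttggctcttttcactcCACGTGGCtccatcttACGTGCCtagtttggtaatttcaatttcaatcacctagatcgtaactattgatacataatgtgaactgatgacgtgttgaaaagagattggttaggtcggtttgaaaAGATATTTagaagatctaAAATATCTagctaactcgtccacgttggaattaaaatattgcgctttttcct
HAI2, chr1:2282829-2283078, minus strand: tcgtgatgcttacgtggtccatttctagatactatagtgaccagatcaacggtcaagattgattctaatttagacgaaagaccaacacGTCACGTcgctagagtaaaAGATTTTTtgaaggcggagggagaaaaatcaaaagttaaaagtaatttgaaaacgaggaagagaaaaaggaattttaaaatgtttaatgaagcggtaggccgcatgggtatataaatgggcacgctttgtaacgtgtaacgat
HAI1, chr5:23896940-23897189, minus strand: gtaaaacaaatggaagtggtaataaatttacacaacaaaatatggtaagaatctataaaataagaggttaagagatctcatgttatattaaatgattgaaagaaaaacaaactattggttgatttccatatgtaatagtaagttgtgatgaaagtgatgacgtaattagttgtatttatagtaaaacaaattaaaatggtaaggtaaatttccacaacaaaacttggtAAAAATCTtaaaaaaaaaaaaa

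The LNK3 window held 2 G-boxes and 4 ABA cores, and the LUX window 2 evening elements, 1 G-box and 2 ABA cores. HAI2 had 1 ABA core and 1 CCA1-binding site, and HAI1 had 1 CCA1-binding site. LNK1, RVE8, PAP1 and UGT75C1, the other 4 genes picked by the same rule, had no match in their windows. The LNK1 window overlaps the gene AT5G64180 and the UGT75C1 window the gene AT4G14096.

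Across promoters, the G-box was in 14.1% of 676 windows of genes called higher in C24XLer, in 3.2% of 750 windows of genes called lower, and in 6.28% of 28862 windows of all genes tested. The ABA core was in 17.3% of the windows of higher genes and 5.47% of those of lower genes, beside 8.39% of all. Evening elements were in 6.36% of higher and 7.07% of lower genes, beside 4.68% of all, and the CCA1-binding site in 8.43% and 7.47%, beside 6.48%. Within the dehydration and ABA list the order was not the same: the G-box was in 13.6% of the windows of its 22 genes called higher and in 22.7% of those of all 44 tested, and the ABA core in 31.8% and 34.1%.

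Of 38 jasmonate and wounding genes 9 (23.7%) were higher and 0 lower in C24XLer, beside 2.34% and 2.57% of all genes. The list median was 0.53, and 29 of the 38 changes were above 0. Jasmonate is made from fatty acids by lipoxygenases such as LOX3 and LOX4 and by the reductase OPR3, and acts through the transcription factor MYC2. MYC2 (AT1G32640, overlapping AT1G32630) had 177, 126 and 43.3 CPM in C24XLer and 37.7, 32.2 and 23.8 CPM in LerXC24 (1.89 ± 0.47, adjusted p = 0.024). OPR3 had 250 CPM in C24XLer A, 75.6 in B and 44.0 in C, and 45.0, 34.9 and 22.2 CPM in LerXC24 (1.86 ± 0.45, adjusted p = 0.023). C24XLer A was far above the other 5 libraries, and C24XLer C lay within the LerXC24 range. LOX3 (1.66 ± 0.39) and LOX4 (1.66 ± 0.39) had the same order of libraries. Without C24XLer A the change of OPR3 was the lowest of its refits, at 0.81 with an unadjusted p of 0.0336.

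Glucosinolates, the sulfur-rich defence compounds of cabbage relatives, had 7 of 32 genes (21.9%) higher and 0 lower, beside 2.34% and 2.57% of all genes. The list median was 0.82, and 30 of 32 changes were above 0. MYB34, the factor that switches on the branch made from tryptophan, had 15.6, 15.6 and 13.9 CPM in C24XLer and 7.35, 7.12 and 4.06 CPM in LerXC24 (1.29 ± 0.20, adjusted p = 0.0094). All 3 C24XLer libraries were close together and above LerXC24, and without 1 library at a time the change stayed between 1.06 and 1.43. CYP79B2 (1.8 ± 0.50) and CYP79B3 (1.77 ± 0.41), which turn tryptophan into the oxime that feeds both this branch and auxin synthesis, were highest in C24XLer A, at 126 and 227 CPM. For CYP79B3 C24XLer B and C had 86.3 and 50.6 CPM and the LerXC24 libraries 42.5, 35.5 and 28.7 CPM. CYP83B1 (1.47 ± 0.39), the next enzyme of the branch, UGT74B1 (1.09 ± 0.28), a glucosyltransferase, and SOT16 (1.08 ± 0.29), a sulfotransferase, rose as well. The median with the clock index was 0.19.

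Flavonoid and anthocyanin genes had 6 of 30 higher and 0 lower, beside 2.34% and 2.57% of all genes, with a list median of 0.83. PAP1, a MYB factor that turns on anthocyanin synthesis, had 15.2, 13.0 and 7.85 CPM in C24XLer and 6.62, 1.88 and 1.26 CPM in LerXC24 (1.89 ± 0.47, adjusted p = 0.025). UGT75C1, an anthocyanin glucosyltransferase that overlaps AT4G14100, had 48.3, 25.5 and 28.3 CPM in C24XLer and 23.3, 15.6 and 9.91 CPM in LerXC24 (1.06 ± 0.27, adjusted p = 0.027). LerXC24 C was the lowest in both genes. UGT78D2 (0.92 ± 0.25), a flavonoid glucosyltransferase, and CHIL (0.92 ± 0.22), which aids the first steps of the pathway, were higher by similar amounts. The list median with the clock index was 0.15.

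**Figure D4:**
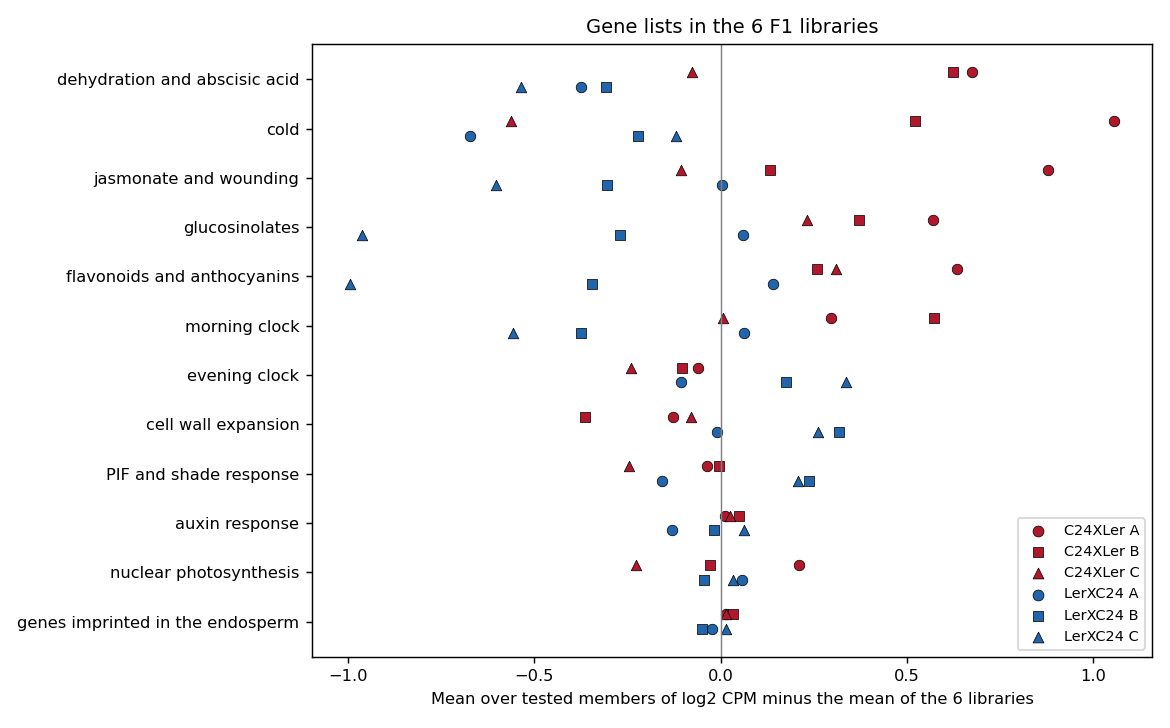
Mean over the tested members of 12 gene lists of log2 CPM minus the mean of the 6 F1 libraries (x), by list (y), with C24XLer in red above LerXC24 in blue (circle A, square B, triangle C). Dehydration genes are at 0.67 and 0.62 in C24XLer A and B and at -0.08 in C24XLer C, while flavonoid and glucosinolate genes are lowest in LerXC24 C, at -1.0 and -0.96.

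The libraries that carried these lists were not the same. Dehydration genes averaged 0.67, 0.62 and -0.08 log2 units from the mean of the 6 libraries in C24XLer A, B and C, and -0.38, -0.31 and -0.54 in LerXC24 A, B and C. Jasmonate genes were at 0.88 in C24XLer A and between -0.60 and 0.13 in the other 5 libraries. Flavonoid genes were at 0.63, 0.26 and 0.31 in C24XLer, and 0.14, -0.35 and -1.0 in LerXC24, so that LerXC24 C was the farthest from the rest.

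Genes of wall expansion were called in both directions, more of them lower in C24XLer. Xyloglucan endotransglucosylase/hydrolases (XTH) cut and rejoin the hemicellulose that ties cellulose fibres together, and expansins loosen the wall. Of 25 genes of wall expansion, 7 (28.0%) were lower and 2 (8.0%) higher, beside 2.57% and 2.34% of all genes, with a median of -0.35, and all 7 were XTH genes. XTH4 (AT2G06850, chr2:2763449-2765743) had 170, 134 and 191 CPM in C24XLer and 242, 442 and 597 CPM in LerXC24 (-1.37 ± 0.28, adjusted p = 0.016). XTH8 had 13.0, 10.7 and 17.7 CPM in C24XLer and 22.6, 38.3 and 43.4 CPM in LerXC24 (-1.33 ± 0.24). XTH33 (-1.93 ± 0.43) and XTH24 (-1.44 ± 0.39) fell further. LerXC24 A was the lowest LerXC24 library for all 4 genes and stood nearest to C24XLer. The 2 higher members were expansins, EXPA15 (1.12 ± 0.32) and EXPA10 (0.99 ± 0.25), with EXPA10 at 39.6, 33.9 and 23.4 CPM in C24XLer and 19.5, 18.3 and 11.2 CPM in LerXC24.

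Among the 10 largest falls, FLA9 and AGP17, which code for arabinogalactan proteins of the wall and membrane, changed by -2.44 and -1.99 log2 units. FLA9 (AT1G03870, chr1:982381-983544) had 27.9, 16.1 and 39.0 CPM in C24XLer and 77.5, 156 and 219 CPM in LerXC24 (SE 0.53, adjusted p = 0.018). LRX3, a leucine-rich extensin that joins wall and membrane, had 31.1, 14.6 and 40.9 CPM in C24XLer and 76.5, 136 and 179 CPM in LerXC24 (-2.18 ± 0.52). BXL1, a xylosidase that trims wall polymers, had 85.3, 61.5 and 80.3 CPM in C24XLer and 114, 354 and 413 CPM in LerXC24 (-1.95 ± 0.46). In each of them LerXC24 B and C were the highest libraries. PATL2 (-2.13 ± 0.49), a lipid-transfer protein of the patellin family, AT5G44020 (-2.0 ± 0.39, overlapping AT5G44030) and SMT3 (-1.98 ± 0.42), a sterol methyltransferase, were also among the 10 largest falls. With the clock index as a covariate AT5G44020 alone among these 10 had an unadjusted p under 0.05 by edgeR, at 0.0265 with a change of -0.77.

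Genes of sugar starvation and senescence were lower at 3 (13.6%) and higher at 1 (4.55%) of 22, beside 2.57% and 2.34% of all genes. DIN10, a gene switched on in the dark that overlaps AT5G20260, had 192, 103 and 184 CPM in C24XLer and 345, 855 and 1100 CPM in LerXC24 (-2.26 ± 0.54, adjusted p = 0.022). DIN4 (-0.67 ± 0.17, overlapping AT3G13445) and DIN3 (-0.38 ± 0.10, overlapping AT3G06840), subunits of the enzyme that breaks down branched-chain amino acids, were lower by less. BBX32 was higher (1.70 ± 0.49, overlapping AT3G21140). Starch genes were higher at 3 of 31 (9.68%) and lower at 0, beside 2.34% and 2.57% of all genes. BAM1, a beta-amylase, had 145, 110 and 73.9 CPM in C24XLer and 57.9, 56.4 and 49.5 CPM in LerXC24 (1.01 ± 0.26). GBSS1 (1.01 ± 0.28) and SS2 (0.79 ± 0.20, overlapping AT3G01175), which build starch, were higher as well.

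Brassinosteroid and gibberellin genes moved both ways, with 3 of 29 (10.3%) higher and 5 (17.2%) lower, beside 2.34% and 2.57% of all genes. GASA6, a small peptide gene that gibberellin induces, had 99.3, 146 and 194 CPM in C24XLer and 267, 458 and 560 CPM in LerXC24 (-1.55 ± 0.35, adjusted p = 0.019). BR6OX2 (-1.27 ± 0.29) and CPD (-0.71 ± 0.18, overlapping AT5G05680), enzymes of brassinosteroid synthesis, were lower. GAI, a repressor of gibberellin responses of the DELLA family, was lower by 0.51 log2 units (-0.51 ± 0.14), and RGL2, another DELLA, was higher (1.12 ± 0.26), with 11, 10.9 and 8.32 CPM in C24XLer and 6.84, 3.61 and 3.45 CPM in LerXC24. The synthesis genes GA20OX1 (1.15 ± 0.32) and GA3OX2 (0.59 ± 0.16) rose.

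The clock genes split by phase. Of 13 morning genes 3 (23.1%) were higher and 0 lower, with a median of 0.39. Of 12 evening genes 0 were higher and 2 (16.7%) lower, with a median of -0.32. Over all genes 2.34% were higher and 2.57% lower. LNK1 (AT5G64170, overlapping AT5G64160), a coactivator that works with RVE8, had 127, 130 and 86.2 CPM in C24XLer and 82.6, 37.3 and 24.9 CPM in LerXC24 (1.25 ± 0.30, adjusted p = 0.023). RVE8, which activates evening genes, had 29.6, 33.8 and 21.1 CPM in C24XLer and 20.5, 11.6 and 7.6 CPM in LerXC24 (1.09 ± 0.27). LNK3 (overlapping AT3G12340) was higher by 1.25 ± 0.35. In each of the 3, C24XLer C and LerXC24 A were neighbours.

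LUX (overlapping AT3G46650), the DNA-binding part of the evening complex, had 21.4, 24.7 and 25.9 CPM in C24XLer and 28.3, 45.1 and 49.3 CPM in LerXC24 (-0.77 ± 0.18, adjusted p = 0.021). CHE, a repressor of CCA1, was lower by 0.58 log2 units (-0.58 ± 0.12, adjusted p = 0.016). CCA1 (0.39 ± 0.14, adjusted p = 0.12), LHY (0.15 ± 0.10), PRR9 (1.47 ± 0.49, adjusted p = 0.081) and TOC1 (-0.21 ± 0.13) were not called. Among 12 output genes 3 were higher, BBX25, CDF1 and CDF3 (0.86 to 1.48), and LUX, which stands in both lists, was the 1 lower. Since LUX, LNK1, RVE8 and the 4 genes that missed the test are in the index itself, the fit with the index says nothing of them.

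PIF4, a light- and temperature-regulated activator of growth in the study's title, was not called. It had 180, 227 and 202 CPM in C24XLer and 203, 260 and 264 CPM in LerXC24, which overlap (-0.26 ± 0.14, adjusted p = 0.32). Of 7 PIF family genes 1 was higher, PIF6 (0.54 ± 0.14), which overlaps AT3G62080. Of 20 genes of the PIF and shade response 0 were higher and 2 lower, and both, PAR1 and PAR2, code for proteins that hold PIF action back. PAR1 had 13.6, 9.20 and 14.6 CPM in C24XLer and 24.7, 52.1 and 60.5 CPM in LerXC24 (-1.88 ± 0.45, adjusted p = 0.022), and PAR2 changed by -0.88 ± 0.22.

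YUC8, an enzyme of auxin synthesis that PIF4 activates, had 2.49, 2.41 and 2.86 CPM in C24XLer and 2.84, 6.64 and 5.58 CPM in LerXC24 (-0.96 ± 0.29, adjusted p = 0.055). LerXC24 A lay among the C24XLer libraries. Of 15 genes of auxin synthesis 2 (13.3%) were higher, the CYP79B pair above, and 2 (13.3%) lower, YUC2 (-0.89 ± 0.22) and AMI1 (-0.60 ± 0.16), beside 2.34% and 2.57% of all genes, with a list median of -0.07. Of 35 auxin-response genes 1 (2.86%) was higher and 0 lower, the repressor gene IAA5 (1.08 ± 0.28, overlapping AT1G15570, at 1.88 to 3.35 CPM in C24XLer and 1.1 to 1.39 CPM in LerXC24). IAA19 (-0.09 ± 0.11) and IAA29 (-0.67 ± 0.27, adjusted p = 0.16) were not called.

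Flowering-time genes had 3 of 32 (9.38%) higher and 1 (3.12%) lower, beside 2.34% and 2.57% of all genes. TOE1, a repressor of flowering of the AP2 family, had 162, 170 and 130 CPM in C24XLer and 107, 88.9 and 69.9 CPM in LerXC24 (0.80 ± 0.15, adjusted p = 0.016). SNZ (1.09 ± 0.26), of the same family, and SPL9 (0.75 ± 0.20) rose, and SPL3 was lower (-0.65 ± 0.17, overlapping AT2G33815). SPL3 and SPL9 both promote the change to the adult phase.

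Salicylic acid and defence genes gave 1 call of 34 (2.94%, near the 2.34% of all genes called higher), WRKY53 (1.26 ± 0.31, overlapping AT4G23800). The marker PR1 had 9.41, 1.73 and 11.2 CPM in C24XLer and 3.57, 2.42 and 4.85 CPM in LerXC24 (1.05 ± 1.22, adjusted p = 0.72), and ICS1, which makes the salicylic acid precursor, changed by 0.19 ± 0.14. Single calls, at shares of 2.94% to 5.0% beside 2.34% of all genes called higher, came from heat shock (HSFB1, 0.64 ± 0.16, 1 of 21), cell cycle (CYCB1;4, 0.52 ± 0.12, 1 of 34) and the reactive oxygen and copper list (GPX7, 0.58 ± 0.16, 1 of 20, overlapping AT4G31875). Chlorophyll synthesis had 1 of 18 higher and 1 lower (5.56% each, beside 2.34% and 2.57% of all genes). CAO was higher (0.54 ± 0.15, overlapping AT1G44414) and PORB lower (-0.44 ± 0.13, overlapping AT4G27450).

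No member was called by edgeR in the lists of nuclear photosynthesis (51 tested, 1 at an unadjusted p under 0.05), ribosomes (18, 0), nutrient supply (30, 6, with a median of 0.46 and 28 of 30 changes above 0), iron (19, 5), floral organs (13, 0) and shoot meristem and leaf growth (30, 4). In the iron list the crosses did not overlap at 9 of 19 genes, beside 17.8% of all genes tested. Its median was 0.35 and 12 changes were above 0, with a range from -1.13 (FER1) to 2.94 (BHLH100). IMA1, IMA2 and IMA3 had no match by name and are not among the 19. LHCB3, a light-harvesting protein gene that overlaps AT5G54280, had 6540, 4220 and 4080 CPM in C24XLer and 4970, 4370 and 4510 CPM in LerXC24, with C24XLer A alone above the rest (0.10 ± 0.15). Markers of mesophyll, phloem and embryo had 0 calls by edgeR and 0 at an unadjusted p under 0.05, and those of root (2 unadjusted), xylem (1) and pollen (1) also had 0 calls. The summed level of 17 root markers was 181 to 297 CPM in C24XLer and 157 to 210 CPM in LerXC24, with 6 of them under 1 CPM in every F1 library, and that of 6 mesophyll markers was 40600 to 56300 CPM in C24XLer and 48500 to 51800 CPM in LerXC24. GL3, a trichome factor that is also in the flavonoid list (0.58 ± 0.16), and SLAC1, the anion channel of guard cells (-0.52 ± 0.10, overlapping AT1G12470), were the calls among epidermal and guard cell markers. They made 7.69% of the epidermal and 9.09% of the guard cell markers, beside 2.34% of all genes called higher and 2.57% called lower. Guard cell and stomatal markers, 11 in all, summed to 267 to 280 CPM in C24XLer and 299 to 365 CPM in LerXC24, without overlap, and 6 of them had an unadjusted p under 0.05 and 3 a change above 0. The 13 epidermal and trichome markers summed to 1590 to 1800 CPM in C24XLer and 1540 to 1690 CPM in LerXC24. The part of these markers in the results was not tested. In such bulk samples fewer cells of a type and less RNA per cell cannot be told apart.

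Organelle genes as a whole took a small share of counts. The 125 plastid-encoded genes took 0.0325%, 0.0445% and 0.0612% of counts in C24XLer A, B and C, and 0.0364%, 0.0310% and 0.0305% in LerXC24 A, B and C. LerXC24 A lay within the range of C24XLer, and the difference of means was 0.0134 percentage points (exact permutation test, two-sided, p = 0.20, where 0.1 is the smallest p that 3 against 3 allows). The mitochondrion-encoded genes took 0.00161%, 0.00193% and 0.00260% in C24XLer, and 0.00137%, 0.00143% and 0.00124% in LerXC24 (exact permutation test, two-sided, p = 0.10). Without C24XLer C the difference was 0.00587 percentage points for plastid and 0.000423 for mitochondrial genes, against 0.0134 and 0.000701 with all libraries. The 3 mitochondrial shares of C24XLer were all above those of LerXC24, and C24 (0.00143% to 0.00230%) and Ler (0.00132% to 0.00149%) overlapped. Of 86 plastid genes tested 0 were called by edgeR (2 unadjusted), with a median of 0.29.

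C24 minus Ler is the contrast of the parents named first, and it shares no library with C24XLer minus LerXC24. Of the 551 genes called in both, 63 had the same sign and 488 (88.6%) the opposite one. The 488 were 162 genes higher in C24XLer and lower in C24, and 326 lower in C24XLer and higher in C24. Over all 7555 genes called between the parents 62.7% had opposite signs. The count of 488 was 0 without LerXC24 C, 1 without LerXC24 B, 9 without C24XLer A, 8 without C24XLer B, 858 without LerXC24 A and 0 with the clock index, and the index averaged -0.47 ± 0.24 in C24XLer, 0.73 ± 0.78 in LerXC24, -0.05 ± 0.67 in C24 and -1.0 ± 0.20 in Ler (SD, n = 3).

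**Figure D5:**
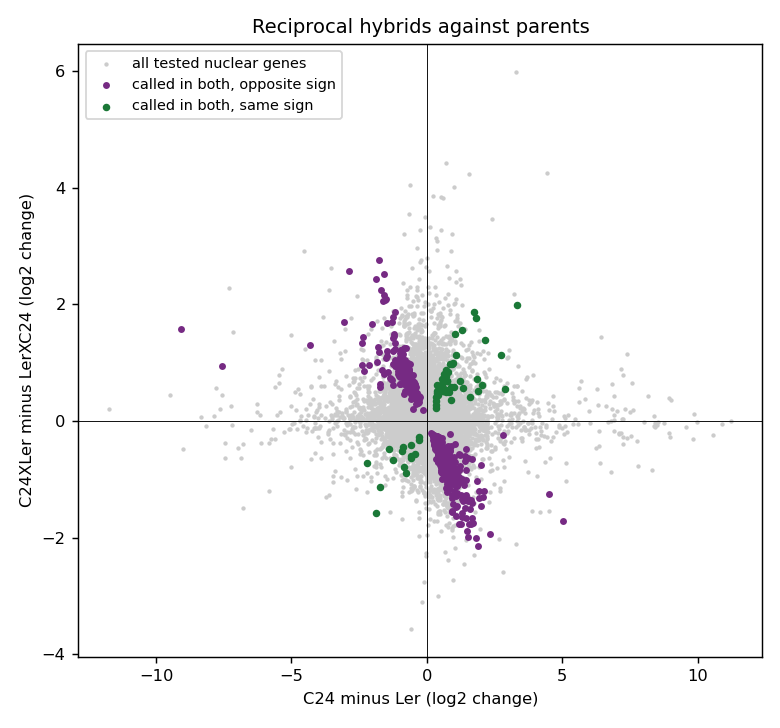
Log2 change of C24XLer minus LerXC24 (y) against that of C24 minus Ler (x) for all tested nuclear genes (grey), with genes called in both contrasts in purple where the signs are opposite and green where they are the same. Of the 551 called in both, mitochondrial genes included, 488 lie in the quadrants of opposite sign.

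Genes with opposite signs and the smallest p were HB-7, sks4, MYB74, AT5G50360 and AT1G10990. AT5G50360 had 10.2, 5.02 and 1.65 CPM in C24XLer and 1.27, 0.712 and 0.875 CPM in LerXC24 (2.57 ± 0.42), beside 1.04 to 1.61 in C24 and 7.21 to 10.5 in Ler. MYB74 changed by 1.68 ± 0.27 between the crosses and by -1.47 between C24 and Ler, and sks4 by -0.67 ± 0.11 and 0.45.

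Same-sign genes with the smallest p were the 2 mitochondrial genes, AT5G40800, AT3G22920 and TOE1. AT5G40800 (chr5:16334581-16336017) had 9.74, 10.7 and 7.23 CPM in C24XLer and 3.55, 2.41 and 1.61 CPM in LerXC24 (1.87 ± 0.33, adjusted p = 0.016), beside 10, 9.49 and 3.09 CPM in C24 and 1.92, 2.77 and 2.08 CPM in Ler. Each C24XLer library was above each LerXC24 library, and each C24 library above each Ler library. AT3G22920 had 5.98, 5.24 and 4.74 CPM in C24XLer and 3.39, 3.56 and 2.96 CPM in LerXC24 (0.69 ± 0.13, adjusted p = 0.016), beside 4.23 to 5.04 CPM in C24 and 2.72 to 3.19 CPM in Ler, again without overlap. With the clock index as a covariate the change was 1.01 (unadjusted p = 0.00971) for AT5G40800 and 0.55 (unadjusted p = 0.00446) for AT3G22920.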

How the data were processed

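The authors deposited raw counts per gene model and a table of read counts per alignment class, per the file headers. FastQC, DESeq and build TAIR10 are named in the submitters' processing notes, and the aligner, counter and strand setting were not given in the sources used here. Counts of 33498 genes were fitted in R 4.3.3 with edgeR 4.0.16 (quasi-likelihood test, TMM scaling, limma 3.58.1), called at an adjusted p under 0.05, with 29268 genes kept by filterByExpr at a minimum count of 10, all 30 libraries, 1 coefficient per line and Benjamini-Hochberg adjustment. The deposited counts were also tested with DESeq2 1.42.0. The fit was tested on simulated data.

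Of the gene IDs, 32730 have an entry in the TAIR10.1 annotation and 768 do not. Organelle IDs have none and are given by ID. A gene whose annotation overlaps that of another counted gene is named as overlapping, since its counts are uncertain. Members and lists were chosen with earlier results of these data known. Named are the 10 largest rises and 10 largest falls among called genes that average at least 10 CPM in the 6 F1 libraries without overlap of the crosses, up to 4 called genes per list and direction, the 5 of smallest p per direction against the parents, and 15 genes always named. The comparison of genes expressed in 1 parent was added after the counts had been seen.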

Additional observations from a re-analysis of the deposited data

Results flagged for a closer look

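The 2 mitochondrial genes that told the crosses apart also had counts in F6 lines that enter no comparison here. Summed over ATMG00730 and ATMG01170 and over 3 libraries, there were 78 counts in Med-E, 40 in HM-G, 125 in Sml-D and 85 in Med-F, above the limit of 3 that a count of 0 allows, and 0 in all 6 libraries of HM-W and HM-S. AT2G07747 was the reverse, with 23 counts in HM-W, 13 in HM-S and 0 in the other 4 F6 lines. In each F6 line all 3 libraries fell on the same side, and the labels do not give the direction of the cross that each line came from.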

How the results depend on the processing

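The count of 1438 genes between the crosses was 2144 with DESeq2, 1437 with RLE size factors, 1350 without the low-count filter, 1557 at a minimum count of 50, 1423 without organelle genes and 1012 without overlapping genes. It was 0 with only the 6 F1 libraries, 0 with only 12 libraries, 0 with the clock index, and 0 to 2944 without 1 library. Pairing by letter was looked for in the deviations of log2 CPM from the mean of each line. In these deviations same-lettered libraries of the crosses correlated at 0.0094, 0.086 and -0.00027. Over all same-lettered pairs of the 4 lines the range was -0.083 to 0.311 (0.311 for C24 C with LerXC24 C). Not every such pair was above 0.1, so the letters were not taken to pair the libraries. In each of the 4 lines C had the highest clock index. With the letter as a replicate block the count was 1423 with 12 libraries and 245 with 6, against 0 and 0 without it. The count of 488 genes opposite to the parents was 0 to 858 without 1 library and 0 with the clock index. Nuclear genes above 3 counts in only 1 cross numbered 0 of 79 and, at a minimum of 10 counts in the parent (chosen after seeing the data), 37 of 269, with 18 on the side where the expressing parent is named first and 19 on the other. With the clock index LNK3 (-0.03), BBX25 (-0.09) and CDF1 (-0.02) turned sign. The causes were not tested. Of the 90 named genes that were called, between 0 (without LerXC24 C) and 89 (without LerXC24 A) were called in the same direction without 1 library, 0 with the clock index, and all 88 with a value under DESeq2. The difference of plastid shares was 0.00587 to 0.0202 percentage points without 1 library, lowest without C24XLer C and against 0.0134 with all, and that of mitochondrial shares 0.000423 (without C24XLer C) to 0.000923, against 0.000701. At 45856620 reads or more per library, depth limits genes of few counts, such as the mitochondrial ones.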

Other observations

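Of all genes counted, 9 had at least 10 counts over 1 cross and 0 in every library of the other. Beside the 5 mitochondrial genes and AT2G07747, 2 nuclear genes went with the parent named second. AT5G33432 (chr5:12728899-12729634) had 2, 9 and 2 counts in C24XLer and 0 in each LerXC24 library, beside 0 in each C24 library and 11, 1 and 3 in Ler. AT4G08099 (chr4:5008113-5010738) had 0 in each C24XLer library and 4, 3 and 3 counts in LerXC24, beside 4, 2 and 3 in C24 and 0 in each Ler library. AT1G57710 (0 over C24XLer, 10 over LerXC24) had counts in both parents. All 3 were too low to be tested.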
